A study of Mus musculus with 6 samples.

Results

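The 10 imprinted growth genes H19, Igf2, Igf2r, Grb10, Cdkn1c, Plagl1, Peg3, Mest, Dlk1 and Meg3 were followed in CD31+ckit+ cells of the mouse embryonic aorta. They were taken by gene symbol from the 24062 genes of the count tables, and all 10 were present and passed the filter on low counts, as did 12688 genes in all. Hematopoietic stem and progenitor cells emerge from the aortic wall at this stage, and the cells were sorted by the Venus reporter of Gata2, a transcription factor that this emergence requires. RNA sequencing was performed on 3 libraries of CD31+ckit+Vmed cells (intermediate Venus) and 3 of CD31+ckit+Vhigh cells (high Venus) from the aorta-gonad-mesonephros region of E10.5 Gata2Venus embryos, strain C57BL/6JOlaHsd. Both fractions came from embryos with 1 Gata2Venus allele, inherited from the father, and 1 wild-type Gata2 allele, and a reporter-free group was not analysed here. The labels do not say how many embryos each library pooled, so p-values measure the spread between these libraries. The reads carry no information on the parental allele, so every value below is the sum of both alleles, and imprinting itself was not measured.

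Imprinted genes are transcribed mainly from the copy inherited from 1 parent, which is set by DNA methylation placed in the germ line. Many of them control fetal growth, and paternally expressed genes such as Igf2 tend to promote it while maternally expressed genes such as Igf2r, Grb10 and Cdkn1c restrain it. Igf2, Peg3, Mest, Dlk1 and Plagl1 are the paternally expressed members, and H19, Igf2r, Grb10 (outside neurons), Cdkn1c and Meg3 the maternally expressed ones. H19 and Cdkn1c are also known for their part in keeping adult blood stem cells out of the cell cycle. In sorted bulk samples, fewer cells of a type and less RNA per cell cannot be told apart.

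Total gene counts ranged from 8296831 to 12035206 per library, which detected 10427 to 18460 genes. A count of 3, the smallest taken as detection, corresponded to 0.25 to 0.36 CPM (counts scaled to a common library total), and every member exceeded it in every library. No pair of libraries agreed within sampling noise. Levels of a gene across libraries are given as CPM with TMM-adjusted library sizes, and fold changes as log2 of Vhigh over Vmed, so that negative values are lower in Vhigh.

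Sequences at these loci show what the gene counts do and do not cover. H19, Igf2, Mest and Meg3 contain microRNA genes within an exon or intron, and the mature microRNAs are given from RefSeq (GRCm38), 5′ to 3′, with the seed (bases 2 to 8) in capitals.
mmu-miR-675-5p: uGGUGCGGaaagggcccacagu
mmu-miR-675-3p: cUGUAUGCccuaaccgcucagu
mmu-miR-483-5p: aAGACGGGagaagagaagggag
mmu-miR-483-3p: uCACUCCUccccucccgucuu
mmu-miR-335-5p: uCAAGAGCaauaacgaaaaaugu
mmu-miR-335-3p: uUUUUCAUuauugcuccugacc
mmu-miR-1906: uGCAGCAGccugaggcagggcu
mmu-miR-770-5p: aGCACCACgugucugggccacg
mmu-miR-770-3p: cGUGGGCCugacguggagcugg
No seed is shared between these microRNAs. The H19 pair lies on chromosome 7 within the H19 exon, the Igf2 pair on chromosome 7 within an Igf2 intron and the Mest pair on chromosome 6 within a Mest intron, while miR-1906 and the miR-770 pair lie on chromosome 12 within Meg3 exons. The microRNA genes had count lines of their own: Mir675, Mir483, Mir770 and Mir1906-1 were at 0 in all 6 libraries, and Mir335 had 1 count in Vhigh replicate 3. A count of 0 limits the reads assigned to those lines and not the mature microRNA, for which these libraries were not made.

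The promoter windows of the 4 members with the largest fitted differences are shown because CpG-rich starts are where imprinted genes are commonly methylated on 1 copy. Each is the 250 bases before a RefSeq start (GRCm38.p6), read 5′ to 3′ on the gene's strand, with CG dinucleotides in capitals.
Peg3 promoter, chr7:6730420-6730669, minus strand: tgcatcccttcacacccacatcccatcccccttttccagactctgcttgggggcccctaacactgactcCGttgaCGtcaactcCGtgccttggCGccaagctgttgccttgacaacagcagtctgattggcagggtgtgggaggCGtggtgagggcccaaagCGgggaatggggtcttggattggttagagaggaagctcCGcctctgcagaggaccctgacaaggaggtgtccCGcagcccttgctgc
Mest promoter, chr6:30737800-30738049, plus strand: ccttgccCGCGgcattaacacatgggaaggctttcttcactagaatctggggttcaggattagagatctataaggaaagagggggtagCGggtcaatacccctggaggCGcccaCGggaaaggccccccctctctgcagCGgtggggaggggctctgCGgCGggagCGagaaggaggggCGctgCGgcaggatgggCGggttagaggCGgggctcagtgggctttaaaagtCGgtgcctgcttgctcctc
Dlk1 promoter, chr12:109452573-109452822, plus strand: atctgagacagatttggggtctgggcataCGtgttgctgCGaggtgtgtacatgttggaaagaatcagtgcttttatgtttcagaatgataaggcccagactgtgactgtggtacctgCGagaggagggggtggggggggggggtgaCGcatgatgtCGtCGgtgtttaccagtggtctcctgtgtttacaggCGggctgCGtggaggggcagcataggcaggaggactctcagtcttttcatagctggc
Igf2r promoter, chr17:12769707-12769956, minus strand: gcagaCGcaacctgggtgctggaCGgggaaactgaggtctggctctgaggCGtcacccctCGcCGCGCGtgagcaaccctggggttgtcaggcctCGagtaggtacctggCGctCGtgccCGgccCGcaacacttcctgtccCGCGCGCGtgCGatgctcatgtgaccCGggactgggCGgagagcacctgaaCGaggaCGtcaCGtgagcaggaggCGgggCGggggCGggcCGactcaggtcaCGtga
They hold 8, 14, 8 and 27 CG dinucleotides for Peg3, Mest, Dlk1 and Igf2r, in that order. Mest has 3 RefSeq starts in the table: the window shown and one shifted by 3 bases hold 14, and that of a further start (chr6:30733256-30733505) holds 7. The 15 windows that matched 8 members had a median of 10, against 6 over 32851 windows of all genes. The Igf2r window had more than 91.4% of all windows. The letters GATAA, the core read by GATA factors, occurred on either strand in 1 of the 15 windows, that of Dlk1, and in 22.6% of all windows. CACGTG, an E-box, occurred in 2 of 15 and in 6.02% of all, and TGACTCA, an AP-1 motif, in 0 of 15 and in 4.46%. DNA methylation and factor binding were not measured.

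No member passed the test between the fractions. In the quasi-likelihood test of edgeR, adjusted by Benjamini-Hochberg over 12688 genes, every member had an adjusted p of 0.9998, and 0 of the 10 had an unadjusted p under 0.05. The number passing after adjustment was also 0 by edgeR's likelihood ratio test, DESeq2 and limma-voom. In the quasi-likelihood test the background was low as well: 0% of all tested genes passed, and the smallest adjusted p was 0.66. An unadjusted p under 0.05 in the direction of lower Vhigh was found for 1.17%. Of all tested genes, 21 passed by the likelihood ratio test, 51 by DESeq2 and 0 by limma-voom. The paper, also with edgeR and a threshold of 0.05, reported genes that differed between these fractions, most of them lower in Vhigh, from its own processing.

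The fitted values lay on the side of lower expression in Vhigh. All 10 log2 fold changes were below 0, from -1.80 for Peg3 to -0.34 for Meg3, with a median of -0.73 against -0.02 over all genes. Below 0 were 51.1% of all tested genes, and 45.1% of the 4944 genes with a mean CPM at least that of Dlk1, the member with the lowest level. The count of members was 10 under each normalization tried, 9 without Vmed replicate 1 and 8 without Vmed replicate 3. Summed over the members, 0.408%, 0.556% and 0.950% of gene counts came from these genes in the Vmed libraries and 0.219%, 0.324% and 0.562% in the Vhigh libraries, so the share was lower in Vhigh in each of the 3 pairs while the ranges of the fractions overlapped.

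**Figure D1:**
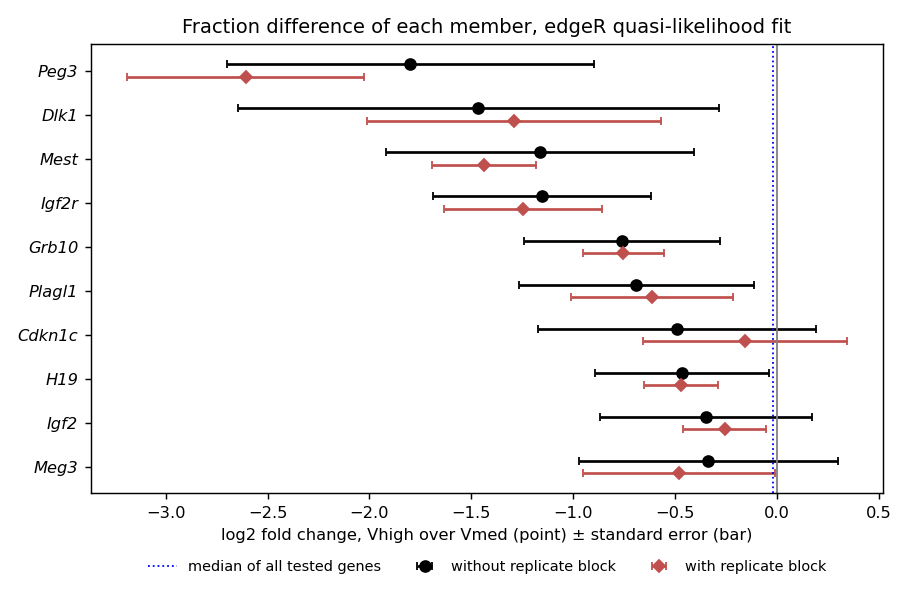
Fitted log2 fold change (Vhigh over Vmed, horizontal axis) of each of the 10 members (vertical axis), with its standard error as a bar, without (black circles) and with (red diamonds) the replicate block. All points lie left of 0, the black bars of Cdkn1c, Igf2 and Meg3 cross it, and the dotted line marks the median of all tested genes at -0.02.

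Same-numbered libraries of both fractions deviated together across genes (r = 0.21, 0.21 and 0.39), so the members were also compared within replicate numbers. Vhigh was lower than Vmed in all 3 same-numbered pairs for 6 of 10 members (H19, Igf2r, Grb10, Peg3, Mest and Dlk1), and for 16.5% of all genes and 16.7% of the genes at or above the level of Dlk1. When edgeR's quasi-likelihood test was blocked by replicate number, 5 of 10 members (H19, Igf2r, Grb10, Peg3 and Mest) had an unadjusted p under 0.05 and a lower value in Vhigh, against 2.36% of all genes, and 0 passed after adjustment. The blocked likelihood ratio test, which allows less for uncertainty in the spread, called 2 members, Peg3 and Mest, both lower in Vhigh, against 0.378% of all genes called in that direction, so these calls rest on the choice of test.

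**Figure D2:**
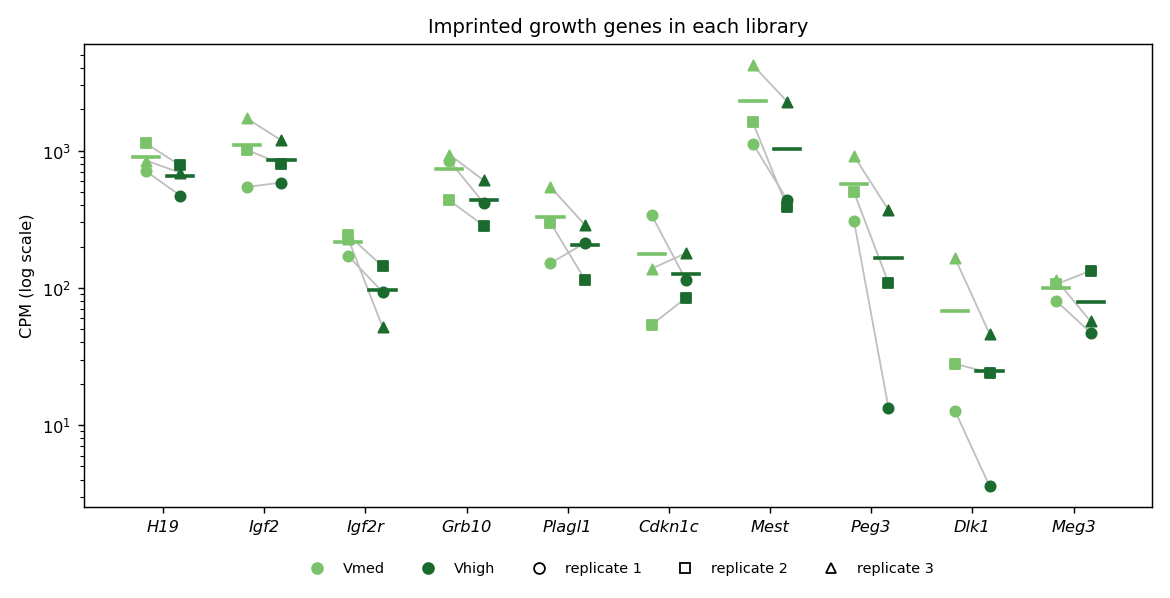
CPM (log scale, vertical axis) of each member in each of the 6 libraries, with light symbols for Vmed, dark symbols for Vhigh a symbol shape for each replicate number, horizontal bars at the means and grey lines joining same-numbered libraries. The fractions overlap for 9 of the 10 members, and replicate 3 holds the highest Igf2, Mest, Peg3, Dlk1, Plagl1 and Grb10 values in both fractions.

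Igf2, the paternally expressed ligand that drives fetal growth through the receptors Igf1r and Insr, had 543, 1012 and 1715 CPM in the Vmed libraries and 585, 797 and 1186 in the Vhigh libraries (replicates 1 to 3). The fractions overlapped and the lowest value of all was in Vmed. The means were 1090.2 ± 589.6 and 856 ± 305 CPM (SD, n = 3 each), a log2 fold change of -0.35 (SE 0.52), with a two-sided exact permutation p of 0.8, where 0.1 is the smallest the design allows. Without Vmed replicate 3 the fitted value was 0.14.

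H19, the maternally expressed noncoding RNA transcribed beside Igf2, had 709, 1129.5 and 846 CPM in Vmed and 470.4, 782 and 691 in Vhigh. It was the member with the smallest range over the libraries: its highest and lowest library differed by 1.26 on the log2 scale, a smaller range than in all but 16.8% of the genes at or above the level of Dlk1. H19 was lower in Vhigh by 1.51-, 1.44- and 1.22-fold in the same-numbered pairs, although the fractions as groups overlapped. The mean was 895 ± 214 CPM in Vmed and 648 ± 160.3 in Vhigh (log2 fold change -0.47, SE 0.43, exact permutation p = 0.2), and the block reduced the standard error to 0.18 at the same estimate.

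Igf2r, the maternally expressed receptor that takes IGF2 to the lysosome and so clears it, had 171, 243 and 228 CPM in Vmed against 93.5, 144 and 51.8 in Vhigh. It was the only member whose fractions did not overlap, against 5.3% of all tested genes not overlapping in this direction. On CPM from plain gene totals they met, with 162.6 in Vmed replicate 1 and 163.0 in Vhigh replicate 2. The log2 fold change was -1.15 (SE 0.53), with an exact permutation p of 0.1, and -1.25 (SE 0.39) with the block.

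Grb10, an adaptor that binds the insulin and IGF receptors and dampens their signal, had 844, 434 and 935 CPM in Vmed and 415, 284 and 607 in Vhigh. Each Vhigh library was below its same-numbered Vmed library, by 2.03-, 1.53- and 1.54-fold, while the groups overlapped. The fitted log2 fold change was -0.76 (SE 0.48) and -0.75 (SE 0.20) with the block, adjusted p = 0.954 in edgeR's blocked quasi-likelihood test.

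Cdkn1c, the maternally expressed cyclin-dependent kinase inhibitor p57, showed no common direction. Its values were 338, 53.7 and 138 CPM in Vmed and 114, 84.7 and 179 in Vhigh, so the highest and the lowest library were both Vmed. The log2 fold change of -0.49 (SE 0.68) was 0.40 without Vmed replicate 1. Plagl1, a zinc finger factor known to regulate other imprinted genes and to halt the cell cycle, had 151, 298 and 543 CPM in Vmed and 212, 115 and 288 in Vhigh. It was higher in Vhigh in replicate 1 and lower in the other pairs, with a log2 fold change of -0.69 (SE 0.58).

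Peg3, a paternally expressed zinc finger protein, had the largest fitted difference. Its level was 307, 498 and 912 CPM in Vmed and 13.4, 109 and 371 in Vhigh, from 131 to 4364 counts in Vhigh. Every Vhigh library was below its Vmed partner, by 22.9-, 4.56- and 2.46-fold, but Vhigh replicate 3 was above Vmed replicate 1. Vhigh replicate 1, in the 22.9-fold pair, was also the library that detected the fewest genes, 10427. The log2 fold change was -1.80 (SE 0.90), equal to 3.48-fold, with an exact permutation p of 0.2. With the block it was -2.61 (SE 0.58), equal to 6.10-fold, with an adjusted p of 0.916 in edgeR's quasi-likelihood test and 0.0433 in its likelihood ratio test. The unblocked value moved between -3.15 without Vhigh replicate 3 and -1.25 without Vhigh replicate 1.

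Mest, the paternally expressed mesoderm-specific transcript that encodes an enzyme-like protein of the α/β hydrolase fold, was the most abundant member by CPM and ranked 24 of 12688 tested genes. It had 1126, 1606 and 4202 CPM in Vmed and 437, 385 and 2273 in Vhigh. Replicate 3 was far above the other libraries in both fractions, and the Vhigh replicate 3 value exceeded 2 of the 3 Vmed values. The Vmed value was 2.58-, 4.17- and 1.85-fold that of Vhigh within the pairs. The log2 fold change was -1.16 (SE 0.76), and -1.44 (SE 0.26) with the block, with an adjusted p of 0.633 in edgeR's quasi-likelihood test and 0.0417 in its likelihood ratio test. Leaving out Vmed replicate 3 brought the unblocked value to -0.40 and leaving out Vhigh replicate 3 to -2.42. Mest shares 912 exonic bases with Copg2 on the opposite strand, and the strand setting of the counting is not given in the sources used here, so reads there cannot be told apart.

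Dlk1, a paternally expressed membrane protein related to the Notch ligands, was the member with the lowest mean CPM and the largest standard error. It had 12.6, 27.9 and 164 CPM in Vmed and 3.59, 24.1 and 46.2 in Vhigh; Vmed replicate 3 stood above the other 5 libraries. Its log2 fold change of -1.47 (SE 1.18) became 0.28 without Vmed replicate 3 and -2.21 without Vhigh replicate 3. Meg3, the maternally expressed noncoding RNA of the same domain, had 80.0, 106 and 114 CPM in Vmed and 47.1, 134 and 56.9 in Vhigh. The highest Meg3 value was in Vhigh replicate 2, and the log2 fold change was -0.34 (SE 0.63), which moved to -0.95 without that library and to -0.07 without Vhigh replicate 1.

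Per base of exon, the order of the members was different from that by CPM, with H19 above Igf2 and Cdkn1c above Grb10. Mean RPKM (CPM per kilobase of merged exons) over the 6 libraries was 424 for Mest, 314 for H19 and 170 for Igf2, followed by 74.1 for Cdkn1c, 64.5 for Grb10, 34.2 for Plagl1, 27.6 for Peg3, 16.7 for Igf2r, 8.19 for Dlk1 and 4.95 for Meg3. Neighbours in this order were often not separated by the libraries: Mest was above H19 in 2 of 6 libraries and Dlk1 above Meg3 in 2 of 6. H19 was above Igf2, and Grb10 above Plagl1, in all 6. With the longest transcript in place of merged exons Cdkn1c and Grb10 changed places. H19 and Igf2, next to each other on the minus strand of chromosome 7 (142575529 to 142578143 and 142650766 to 142666816, GRCm38), are separated by 72623 bases. Dlk1 and Meg3, on the plus strand of chromosome 12 (109452823 to 109463336 and 109541001 to 109571726), are separated by 77665 bases. Mest lies on chromosome 6 (30723547 to 30748465), Peg3 and Cdkn1c on chromosome 7 (6703892 to 6730431 and 143458339 to 143461050), Plagl1 on chromosome 10 (13060504 to 13131694), Grb10 on chromosome 11 (11930508 to 12038683) and Igf2r on chromosome 17 (12682406 to 12769664). H19 and Meg3 are annotated as noncoding RNAs and the other 8 members encode proteins. Igf2 shares 3596 exonic bases with the same-strand gene model Gm49394, Cdkn1c 625 with an antisense model and Meg3 1228 with a model on the other strand, and these 3 models had no count line of their own.

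Within each of these domains the maternally and paternally expressed partners can be compared inside a library, where its sequencing depth cancels. The log2 ratio of H19 to Igf2 RPKM was 1.60, 1.38 and 0.20 in Vmed and 0.90, 1.19 and 0.44 in Vhigh. It was positive throughout and lowest in replicate 3 of both fractions. The fractions differed by -0.21 (exact permutation p = 0.7). The positive sign of this ratio rests on the exon lengths. In counts, H19 was above Igf2 in Vmed replicates 1 and 2 and below it in the other libraries. The log2 ratio of Meg3 to Dlk1 was 0.98, 0.25 and -2.20 in Vmed and 2.02, 0.79 and -1.38 in Vhigh. By RPKM the balance thus lay with Dlk1 in replicate 3 and with Meg3 in replicates 1 and 2, in both fractions. The sign depends on the exon lengths: in Vhigh replicate 3 Meg3 had 670 counts and Dlk1 544. The Meg3 to Dlk1 ratio was higher in Vhigh in all 3 pairs, by 1.04, 0.54 and 0.82, with a mean difference of 0.80 (exact permutation p = 0.6). An exact test that flips the signs of the paired differences gave p = 0.25, the smallest that 3 pairs allow. Without Vmed replicate 3 the mean difference turned to -0.14, and without Vhigh replicate 1 it was 0.03.

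**Figure D3:**
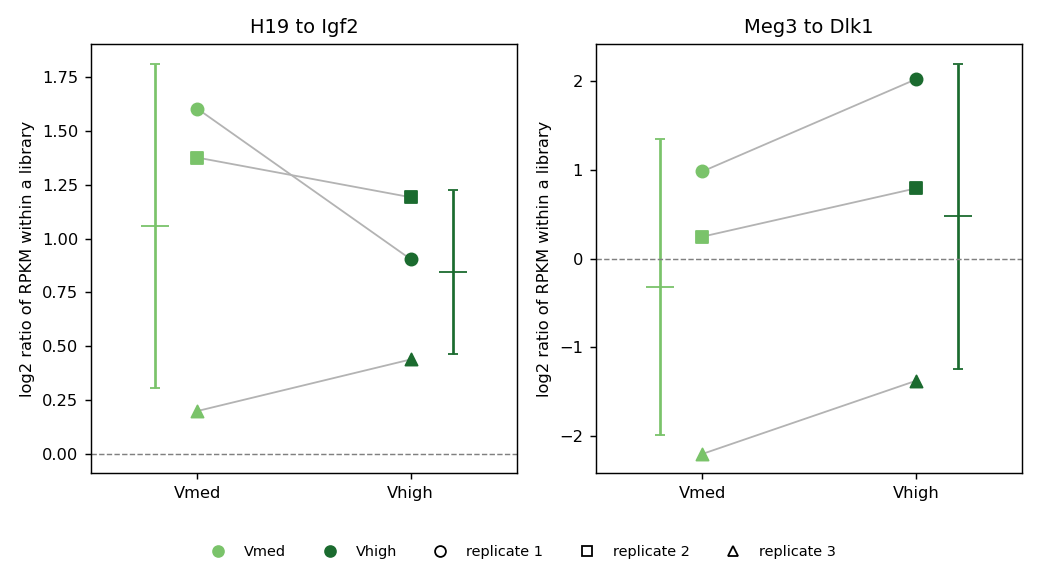
Log2 ratio of RPKM within each library (vertical axis) for H19 to Igf2 (left) and Meg3 to Dlk1 (right) in Vmed and Vhigh, with grey lines joining same-numbered libraries and bars for the mean and SD of 3. Replicate 3 is lowest in both fractions of both panels, and the Meg3 to Dlk1 lines all run upward to Vhigh.

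Members differed in which replicate number was highest. All 5 paternally expressed members and Grb10 were highest in replicate 3 of both fractions, as were 22.4% of all tested genes. H19 and Igf2r were highest in replicate 2 of both fractions, as were 12.4% of all genes. Cdkn1c and Meg3 had their maxima at different numbers in each fraction. The replicate 3 libraries also stood apart in the share of alignments not assigned to a gene, 56.6% and 55.0% against 71.3% to 77.2% in the other 4 libraries. Its part in the values of the members was not tested, and what distinguished the replicate experiments is not given in the labels.

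**Figure D4:**
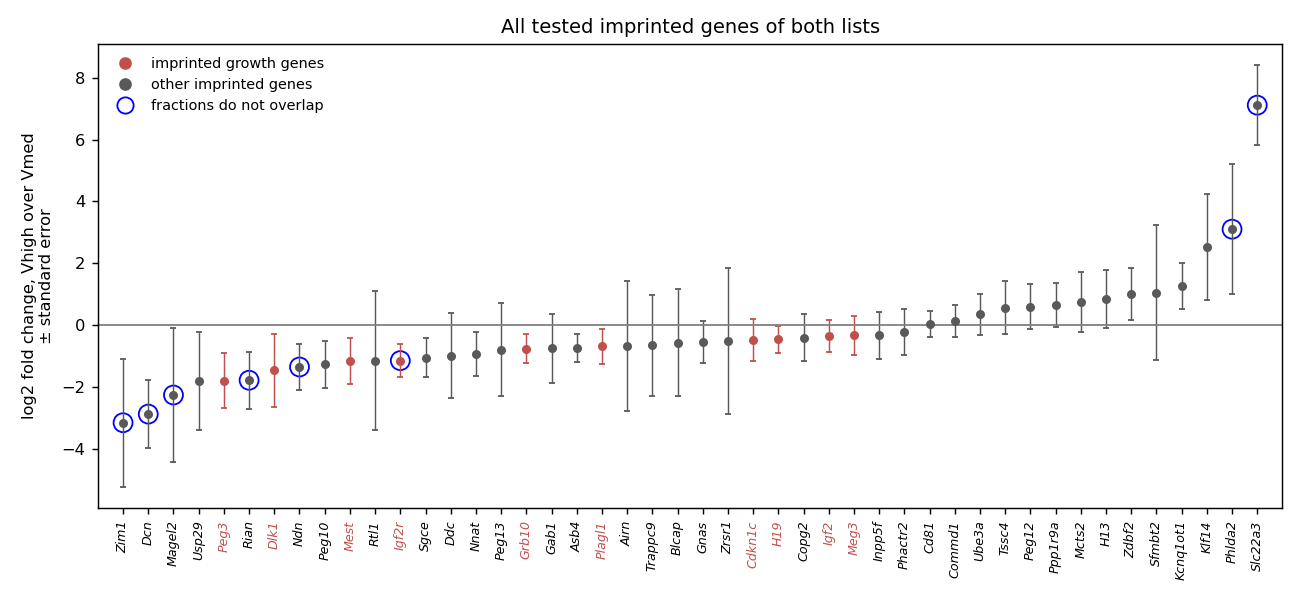
Fitted log2 fold change (Vhigh over Vmed, vertical axis) with its standard error for the 10 imprinted growth genes (red) and the 36 tested other imprinted genes (grey), in order of value, with blue circles where the fractions do not overlap. The other imprinted genes extend to both sides of 0, from Zim1 and Dcn to Slc22a3, while the 10 members lie below it.

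Imprinted genes outside the growth group gave values on both sides. Of 50 listed, 36 were tested, 22 had a log2 fold change below 0 and 14 above, with a median of -0.53, and 0 passed edgeR's quasi-likelihood test (2 had an unadjusted p under 0.05, and 1 passed by DESeq2 and 1 by the likelihood ratio test). In all 3 pairs, 13 of the 36 were lower in Vhigh, against 16.5% of all tested genes. A further 6 were higher in all 3 pairs, for which the share over all genes is not given here. Fractions did not overlap for 5 genes that were lower in Vhigh (Rian, Ndn, Magel2, Zim1 and Dcn), against 5.3% of all genes in that direction. They did not overlap for 2 that were higher (Phlda2 and Slc22a3), against 3.64% of all genes. The most abundant of the list were Gnas, which encodes a stimulatory G protein subunit, Cd81, a tetraspanin, Asb4, a substrate adaptor for ubiquitination, and Commd1. Their log2 fold changes were -0.54 (SE 0.68), 0.03 (SE 0.42), -0.75 (SE 0.46) and 0.13 (SE 0.52), in that order, and their fractions overlapped.

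Genes next to the members gave mixed values. Rian, a noncoding RNA downstream of Meg3, had 72.6, 40.7 and 42.5 CPM in Vmed and 15.3, 13.5 and 16.3 in Vhigh, without overlap, while Meg3 overlapped. Slc22a3, an organic cation transporter next to Igf2r, had 7, 0 and 3 counts in Vmed and 440, 738 and 712 in Vhigh, the opposite order to Igf2r. Its fitted log2 fold change of 7.12 (SE 1.30) rests on few Vmed counts, with an adjusted p of 0.962 in edgeR's unblocked quasi-likelihood test and 0.00353 in the blocked likelihood ratio test. Airn, the noncoding RNA antisense to Igf2r, had 1, 123 and 119 counts in Vmed and 1, 125 and 80 in Vhigh. Replicate 1 thus had 1 Airn count in each fraction, beside 1421 and 912 Igf2r counts.

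In the Cdkn1c domain Kcnq1ot1, a noncoding RNA antisense to Kcnq1, had 61.3, 163 and 61.9 CPM in Vmed and 161, 457 and 65.5 in Vhigh (log2 fold change 1.26, SE 0.74). It was higher in Vhigh within each pair, whereas Cdkn1c was lower only in replicate 1. Phlda2, known as a restraint on placental growth, had 0, 17 and 11 counts in Vmed and 197, 62 and 26 in Vhigh. Zim1, beside Peg3, had 25.2, 7.27 and 4.14 CPM in Vmed and 0, 0.487 and 3.57 in Vhigh, the lowest of them from 0 and 6 counts. Dcn, a proteoglycan of connective tissue, had 309.8, 323 and 314 CPM in Vmed and 121, 3.41 and 4.42 in Vhigh.

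The wider insulin-like growth factor axis showed no call either. Of 31 listed genes, among them Igf2, Igf2r and Grb10, 25 were tested, 16 were below 0 and 9 above, with a median of -0.25, 0 passed edgeR's quasi-likelihood test and 0 had an unadjusted p under 0.05. With the replicate block 0 passed either test after adjustment. In the blocked quasi-likelihood test 4 had an unadjusted p under 0.05, all lower in Vhigh (Igf1, Igfbp5 and the members Grb10 and Igf2r). Over all tested genes that share was 2.36%. The largest fitted differences of the list were mostly in the other direction and had wide errors: 2.26 (SE 2.14) for Stc2, 1.95 (SE 2.59) for Foxo3 and 1.93 (SE 1.81) for Grb14, against -2.05 (SE 1.44) for Irs1, an adaptor of the insulin and IGF receptors. Igf1, the sister ligand of Igf2, had 379, 273 and 189 CPM in Vmed and 201, 113 and 91.9 in Vhigh. Igf1 was lower in Vhigh in each pair (log2 fold change -1.05, SE 0.51), and it was highest in replicate 1 of both fractions where Igf2 was highest in replicate 3. Igf1r, the receptor of both ligands, had 100.3, 120.2 and 104 CPM in Vmed and 59.4, 145 and 109 in Vhigh (log2 fold change -0.05, SE 0.57). Igfbp5, a secreted IGF-binding protein, had 131, 145 and 108 CPM in Vmed and 42.0, 80.1 and 19.8 in Vhigh, without overlap, and Igfbp4, a further one, spanned 58.3 to 1196 CPM in Vmed with the replicate 3 libraries highest in both fractions.

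Among 9 factors that set or keep imprints, 2 were below 0 and 7 above, and 0 passed edgeR's quasi-likelihood test (1 had an unadjusted p under 0.05). Dnmt3b, a de novo DNA methyltransferase, had 34.8, 28.4 and 32.9 CPM in Vmed and 175, 290.2 and 528 in Vhigh, with a log2 fold change of 3.37 (SE 0.53). Its adjusted p was 0.664 in edgeR's quasi-likelihood test, 0.565 in that test with the block and 4.45e-05 in the blocked likelihood ratio test, so the call rests on the choice of test. Zfp57, a zinc finger protein that protects imprints, had 26.4, 103 and 63.4 CPM in Vmed and 1.74, 18.0 and 33.9 in Vhigh, lower in each pair. Dnmt1, which maintains methylation, was at a log2 fold change of 0.50.

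Markers of other cell types moved with the fractions beside these results. The sorting marker Kit had 67.3, 202 and 60.9 CPM in Vmed and 278, 432 and 532 in Vhigh, and Pecam1 (CD31) 124 to 554 and 175 to 446. Gata2, whose reporter defined the fractions, had a fitted log2 fold change of 0.78. Its fractions overlapped, and it was not higher in Vhigh in all 3 pairs. The paper reported higher Gata2 transcript levels in Vhigh from its own processing. All 16 blood stem and progenitor markers had a higher fitted value in Vhigh. The list includes Kit and Gata2, which the sort itself used (Gata2 through its reporter), so these are not independent of it. Summed levels were 594 to 1495 CPM in Vmed and 1407 to 3772 in Vhigh, and these ranges overlapped. By function the paper found transplantable stem cells, tested in older embryos, only in Vmed, and most colony-forming progenitors there too. Colonies were counted per embryo, and the paper counted more Vmed than Vhigh cells per embryo. These counts therefore cannot be set directly against CPM, which is a share of the RNA of a library. Of 16 tested mesenchyme and mural cell markers, 15 were lower in Vhigh, and their sum was 2469, 4558 and 5556 CPM in Vmed and 799.6, 621 and 401 in Vhigh, 6.91-fold lower on the mean and without overlap. Lum, a connective tissue proteoglycan, alone held 449.8 to 1305 CPM in Vmed and 11.9 to 70.5 in Vhigh, and Col1a1 132 to 1458 and 33.2 to 59.8. All 11 macrophage markers were lower in Vhigh, with sums of 1115 to 1964 and 173 to 636 CPM. Among these, Adgre1, a defining macrophage antigen, was at 0, 0 and 0.255 CPM in Vhigh. The paper, from its own processing, found pathways of mature myeloid cells overrepresented among the genes higher in Vhigh. The markers of the urogenital epithelium summed to 229 to 359.8 CPM in Vmed and 103 to 139.8 in Vhigh, those of neural and crest cells to 78.4 to 359 and 20.6 to 82.9, those of erythroid cells to 194 to 632 and 88.8 to 255, and those of the liver bud to 1.17 to 15.7 and 6.46 to 12.4. Their part in the values of the members was not tested.

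The endothelial markers overlapped between the fractions. They summed to 1664, 4496 and 7230.3 CPM in Vmed and 1423, 1486 and 4827 in Vhigh, with 14 of 15 lower in Vhigh by fitted value. Their part in the values of the members was not tested either.

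**Figure D5:**
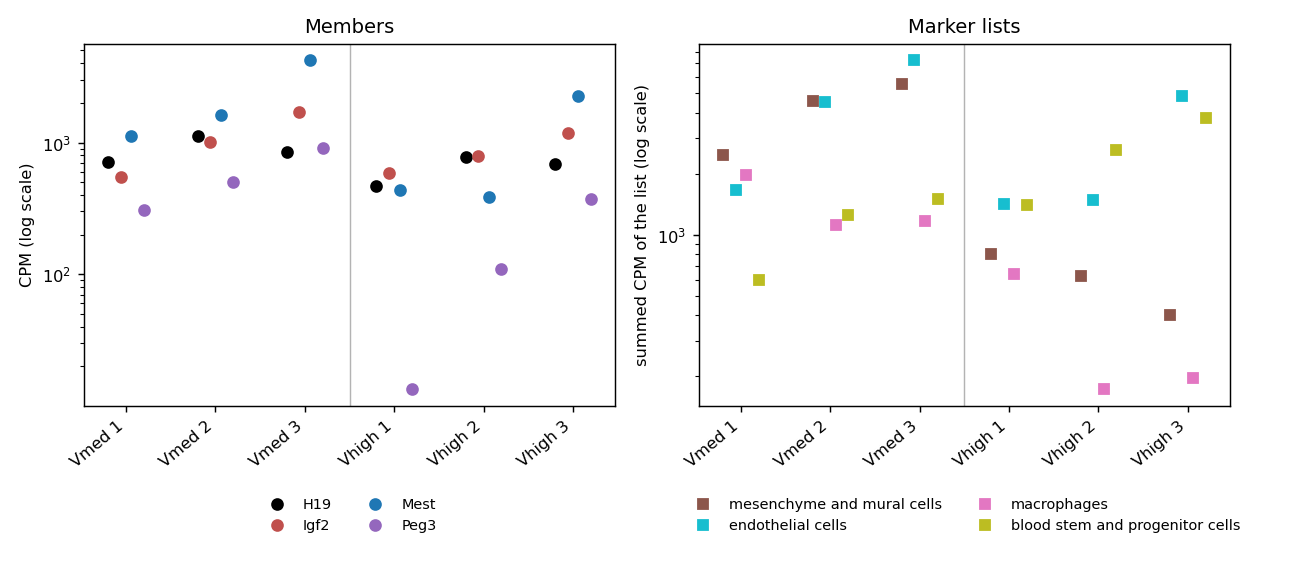
CPM (log scale) of H19, Igf2, Mest and Peg3 (left) and summed CPM (log scale) of 4 marker lists (right) in each of the 6 libraries named on the horizontal axis, with symbols offset sideways for clarity. Mesenchyme and macrophage sums are lower in every Vhigh library than in any Vmed library, while the endothelial sums and the 4 members overlap between the fractions.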

How the data were processed

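RNA was sequenced from 6 libraries as single 50-base reads. The authors aligned them to GRCm38 and deposited raw counts for each gene, which are not normalized. The submitters' processing notes name TopHat, Bowtie 1.1.2 and HTSeq; the annotation and strand setting are not given in the sources used here. Lines that name no gene held 55.0% to 77.2% of all counts and were left out. Libraries were grouped by their labels.

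Counts were tested in R 4.3.3 with edgeR 4.0.16 (filterByExpr, TMM, quasi-likelihood test, Benjamini-Hochberg at 0.05, fraction as the only term). CPM used TMM-adjusted totals, and RPKM merged exons of GENCODE M21. Single values were compared by exact two-sided permutation of the 6 libraries. Detection limits cover counting error only. The scripts were tested on simulated data.

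The replicate numbers come from the labels. Deviations from fraction means correlated at 0.21, 0.21 and 0.39 across genes for same-numbered libraries and at -0.29 to -0.01 for others. Such deviations cancel out over the libraries of a fraction, so the negative values for others are partly a product of the centring. The numbers were treated as pairs in the blocked fits because of the same-numbered values.

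The members and gene lists were chosen with earlier results of these data known. The rule for named genes took all members and, from each other list, the 4 genes with the highest level and the 4 with the largest fold change. Not all of these are printed, and lists of other cell types are given mainly by their sums. Rian, Ndn, Magel2, Airn, Kcnq1ot1, Igf1r and Igfbp5 were named after their values were seen. Alternatives were other normalizations and filters, the likelihood ratio test, DESeq2 1.42.0, limma 3.58.1 (voom), the replicate block and leaving out each library.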

Additional observations from a re-analysis of the deposited data

How the results depend on the processing

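With 0 genes passing edgeR's quasi-likelihood test (259 at an unadjusted p under 0.05), the number passing was 37 with no filter beyond 1 count, 21 by the likelihood ratio test, 51 by DESeq2 and 0 to 1 when each library was left out, the 1 being without Vhigh replicate 1. With the replicate block it was 0 by the quasi-likelihood test and 74 by the likelihood ratio test, which called 2 of the 10 members and 2 of the other imprinted genes. The other imprinted genes passing were 2 with no filter, 1 by the likelihood ratio test, 1 by DESeq2 and 0 to 1 with a library left out. With each library left out, the fitted log2 fold change ranged from -0.98 to 0.40 for Cdkn1c, -2.21 to 0.28 for Dlk1, -0.67 to 0.14 for Igf2 and -0.95 to -0.07 for Meg3. The difference between fractions in the H19 to Igf2 log2 ratio ranged from -0.64 to 0.057, and that in the Meg3 to Dlk1 ratio from -0.14 to 1.73. The cause of these changes was not tested. By the blocked likelihood ratio test 1 imprint maintenance factor (Dnmt3b), 5 mesenchyme, 5 macrophage and 4 blood markers (Kit among them) also passed, and the blocked quasi-likelihood test changed no call. With 3 libraries a fraction, an exact permutation p cannot be below 0.1.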

Other observations

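The genes whose library profile lay closest to H19 and Igf2 were found from log2 CPM centred on its mean over the 6 libraries, as a description of 6 points that share depth and fraction. For H19 they were Fam64a, Drg2, Slc25a38, Arhgdia and Eif4g2, with root mean square differences of 0.087 to 0.14 against a median of 1.43 over all tested genes. For Igf2 they were Srp68, Rdx, Uggt1, Cdk11b and Mtbp, with differences of 0.15 to 0.20 against a median of 1.46. Among the members, Meg3 was nearest to H19 (0.35) and Plagl1 nearest to Igf2 (0.42), while H19 and Igf2 lay 0.50 from each other.

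The cell cycle genes that Cdkn1c belongs with gave no call. Of 15 listed CDK inhibitors, G1 cyclins and their kinases, 13 were tested, 8 were below 0 and 5 above, with a median log2 fold change of -0.25, and 0 passed edgeR's quasi-likelihood test or had an unadjusted p under 0.05. Cdk4, a kinase of G1, was at -0.06 (SE 0.46), Ccnd2, its partner cyclin, at 0.12 (SE 0.41) and Cdk2 at 0.21 (SE 0.72), on the log2 scale. The largest fitted differences were -3.84 (SE 2.51) for Cdkn2c, 2.16 (SE 1.71) for Cdk6, -1.27 (SE 1.57) for Ccne1 and -1.16 (SE 1.59) for Cdkn1a. Cdkn1a, the inhibitor p21, had 13.5, 13.5 and 49.7 CPM in Vmed and 0.102, 12.7 and 21.5 in Vhigh.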
